A study of Mus musculus with 2 samples.

Results

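The Schlafen genes are a family of 7 transcripts in this data set, taken as every row of the deposited gene table whose symbol is Slfn followed by digits only. They are Slfn1, Slfn2, Slfn3, Slfn4, Slfn5, Slfn8 and Slfn9, out of 16463 genes in the table. Messenger RNA was measured in mouse bone marrow-derived macrophages, cells grown from marrow precursors for 5 days with 10% serum and 10% L929 supernatant, a source of macrophage colony-stimulating factor. The WT library came from mice carrying Lyz2-Cre alone. The TKO library came from mice with mir-106a~363 and mir-106b~25 deleted and mir-17~92 flanked by loxP sites, also with Lyz2-Cre. Lyz2-Cre is a recombinase driven from the lysozyme locus of myeloid cells, so loss of mir-17~92 depends on its activity in the cultured cells. Both genotypes are labelled C57BL/6J, neither culture was stimulated, and the labels give no age. Some genes of the major histocompatibility complex had very unequal counts, such as H2-L (22 in WT, 7629 in TKO) and H2-Ea-ps (0 and 118). Whether the libraries share the same strain background was not tested. Each genotype had 1 library, so no test across replicates was possible and every interval below covers counting error only.

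The libraries held 10877897 counts in WT and 10656431 in TKO after rounding. Mir17hg, the host transcript of mir-17~92, had 8 and 42 counts and Mcm7, which hosts mir-106b~25 in an intron, 1228 and 1083. These are whole host genes in polyadenylated RNA and do not check the deletions, so the genotypes rest on the labels.

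Schlafen proteins take their name from the German word for sleep, after the growth arrest that Slfn1 caused when it was forced on in T cells. They share an N-terminal core with a divergent ATPase-type fold, and several members and relatives bind or cut transfer RNA. The mouse family is sorted by protein length. The 7 members taken here are short (Slfn1 and Slfn2), intermediate (Slfn3 and Slfn4) or long (Slfn5, Slfn8 and Slfn9), and these groups cover only these 7. The long ones add a helicase-like part. Type I interferon is a known inducer of many Schlafen genes in myeloid cells. Its receptor activates a transcription factor complex that includes Stat2 and Irf9 and binds the interferon-stimulated response element (ISRE) in target promoters.

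The promoter sequences are shown first because the long members carried a motif that the short and intermediate members lacked. RefSeq promoter windows on GRCm38.p6, from 250 bases before a transcription start to 50 after it, were found for all 7 members, with 2 windows for Slfn8. An ISRE core, written as GAAA, any pair of bases, and GAAA again, on either strand, was present in 3 of 3 long members and 0 of 4 short and intermediate members. Among all 32851 windows it was present in 3.44%, and among 24 windows of the interferon-stimulated reference genes used below in 54.2%. The capitals mark the ISRE core on the strand of the gene, and in Slfn8 and Slfn9 they are its reverse complement. The stretches lie at chr11:82951907-82951996 (plus strand, Slfn5), chr11:83020809-83020898 (minus strand, Slfn8) and chr11:82991826-82991915 (minus strand, Slfn9), each written 5′ to 3′.
Slfn5: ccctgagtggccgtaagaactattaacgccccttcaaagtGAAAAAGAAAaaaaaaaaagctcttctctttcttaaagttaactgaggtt
Slfn8: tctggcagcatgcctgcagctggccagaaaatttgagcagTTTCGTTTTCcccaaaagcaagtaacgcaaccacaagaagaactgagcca
Slfn9: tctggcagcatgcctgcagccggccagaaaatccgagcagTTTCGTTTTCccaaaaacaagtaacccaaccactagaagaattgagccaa

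The 4 short and intermediate members instead shared the letters ACTTCCTGG, a motif chosen after these sequences were seen. Its presence in all 4 was therefore fixed by that choice. It holds the core that ETS-family transcription factors recognise, read on the opposite strand. On either strand it was present in 4 of 4 short and intermediate members, 0 of 3 long members and 0.843% of all windows. With the start base as 0, the match ran from -74 to -66 in Slfn1, -73 to -65 in Slfn4, -55 to -47 in Slfn2 and -42 to -34 in Slfn3. Capitals mark it in the stretches at chr11:83116705-83116794 (Slfn1), chr11:83065016-83065105 (Slfn2), chr11:83191247-83191336 (Slfn3) and chr11:83175072-83175161 (Slfn4), all on the plus strand.
Slfn1: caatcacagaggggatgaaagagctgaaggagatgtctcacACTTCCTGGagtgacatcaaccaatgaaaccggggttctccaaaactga
Slfn2: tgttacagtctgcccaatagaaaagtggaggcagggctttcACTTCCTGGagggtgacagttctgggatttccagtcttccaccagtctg
Slfn3: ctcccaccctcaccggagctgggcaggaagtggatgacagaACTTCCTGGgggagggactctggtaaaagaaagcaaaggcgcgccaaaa
Slfn4: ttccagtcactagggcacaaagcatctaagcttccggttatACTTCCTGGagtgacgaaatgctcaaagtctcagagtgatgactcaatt

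On the same scale the ISRE core ran from -45 to -36 in Slfn9 and from -155 to -146 in Slfn5. In Slfn8 it ran from -48 to -39 or from -136 to -127, because its 2 annotated starts share 1 core. The gamma-activated sequence TTCNNNGAA, a motif of interferon gamma responses that reads the same on both strands, was found in 0 of 7 members and in 8.30% of all windows. No member held more than 1 of the 3 motifs. The Slfn8 and Slfn9 stretches had 63 identical bases of 90 when aligned without gaps. Slfn9 has 1 base fewer just after the core, which shifts the later bases, so this count understates the likeness. A gapped alignment was not made. As alike sequences, they are not independent cases of the core. A match describes the letters and says nothing of binding. For Slfn5 the RefSeq start of the window lies downstream of the first annotated base of the gene, 82951349. Its ISRE match, at 82951947 to 82951956, thus lies inside the annotated gene and is followed by a run of A bases.

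**Figure D1:**
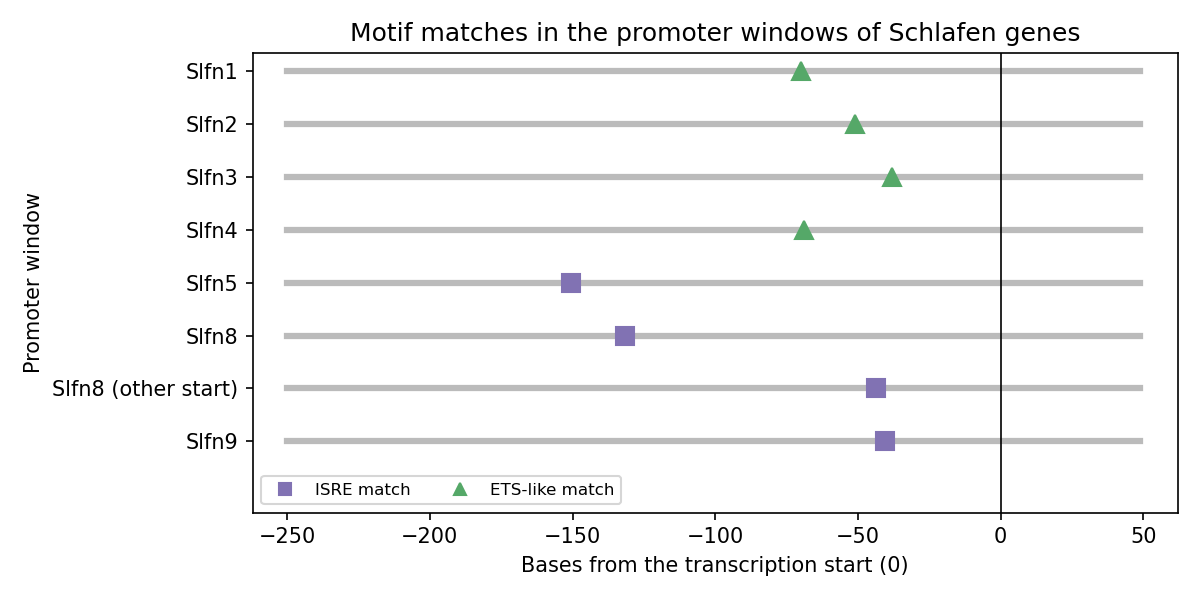
Positions of motif matches in the RefSeq promoter windows of the Schlafen genes; the x axis is the distance in bases from the transcription start and each row is 1 window. Squares are ISRE cores (Slfn5, Slfn8, Slfn9) and triangles are the ETS-like letters (Slfn1 to Slfn4).

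All 7 members had a higher scaled count in TKO than in WT, by 1.22-fold in Slfn3 up to 6.11-fold in Slfn1. Ratios are TKO over WT, from counts scaled by library size and composition. Calls follow a size rule, since no test is possible: it asks for a difference of at least 2-fold, a 95% counting interval that leaves out no change, and at least 20 counts in 1 library. All 7 members met the count minimum. By this rule 3 members were higher (Slfn1, Slfn4 and Slfn5) and 0 were lower, against 2.43% of 11525 measured genes higher and 2.30% lower. The median log2 ratio was 0.92 for the members and 0.00 for all measured genes. An interval wholly above no change was found for 6 members and for 21.8% of measured genes. With a 1.5-fold threshold 5 members were higher against 5.13% of genes, and with a 4-fold threshold 1 was, against 0.659%.

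**Figure D2:**
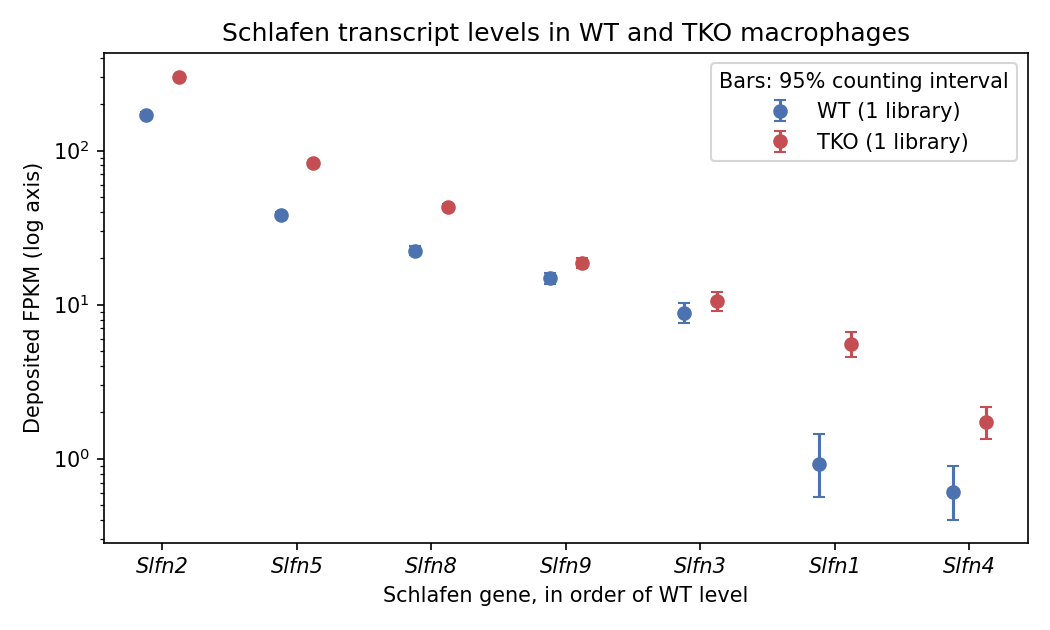
Deposited FPKM of each Schlafen gene in the 1 WT and the 1 TKO library, on a log axis; bars are 95% counting intervals. Slfn2 is highest in both libraries (170.8 and 299.8 FPKM), Slfn4 lowest (0.61 and 1.72 FPKM), and the TKO point lies above the WT point for all 7 genes.

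Slfn1, the founding member, had the largest ratio and very low levels. Its counts were 19 (WT) and 111 (TKO), with 0.93 and 5.54 FPKM, a length-scaled unit. The TKO library was 6.11-fold higher (95% interval 3.74 to 10.5), a log2 ratio of 2.61 (1.90 to 3.40). This ranked 39 of 11525 measured genes from the highest ratio down. On the log2(FPKM + 1) scale, which shrinks ratios of low values, the difference was 1.76.

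Slfn2, the other short member, was by far the most abundant Schlafen transcript. It is needed to keep T cells and monocytes in a resting state, and it protects transfer RNA from cleavage. Its counts were 3113 (WT) and 5358 (TKO), or 170.8 and 299.8 FPKM, and stood at rank 382 and rank 225 by FPKM among all genes of each library. The ratio was 1.80-fold (1.72 to 1.88), a log2 ratio of 0.85 (0.78 to 0.91), which is under the size rule. The log2 ratio of Slfn1 exceeded that of Slfn2 by 1.76 (1.05 to 2.55).

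Among the intermediate members, Slfn4 was higher in TKO and Slfn3 was not separated from no change. Slfn4, which is switched on during macrophage activation, had 26 and 72 counts (0.61 and 1.72 FPKM). That is 2.90-fold more in TKO (1.83 to 4.73), a log2 ratio of 1.54 (0.87 to 2.24). With log2(FPKM + 1) the difference was 0.76, below the 2-fold threshold. Slfn3, which has been linked to T cells and to the gut lining, had 175 and 204 counts (8.82 and 10.5 FPKM) and a log2 ratio of 0.29 (-0.01 to 0.59). Its ratio lay below that of Slfn4 by 1.25 on the log2 scale (0.51 to 2.02).

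Among the long members Slfn5 passed the size rule, and Slfn8 and Slfn9 did not. Slfn5, whose protein lies in the nucleus, was counted 2523 times in WT and 5368 times in TKO, or 38.3 and 83.1 FPKM. It was 2.23-fold higher (2.12 to 2.34), a log2 ratio of 1.15 (1.09 to 1.22), and was the most abundant member past the size rule. Slfn8 had 945 and 1705 counts (22.4 and 42.9 FPKM) and was 1.89-fold higher (1.74 to 2.05). Its log2 ratio of 0.92 lay just under the threshold, with an interval of 0.80 to 1.03 that spans it. Slfn9, its neighbour and close paralog, had 627 and 769 counts (14.9 and 18.6 FPKM) and was 1.28-fold higher (1.15 to 1.43), a log2 ratio of 0.36.

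**Figure D3:**
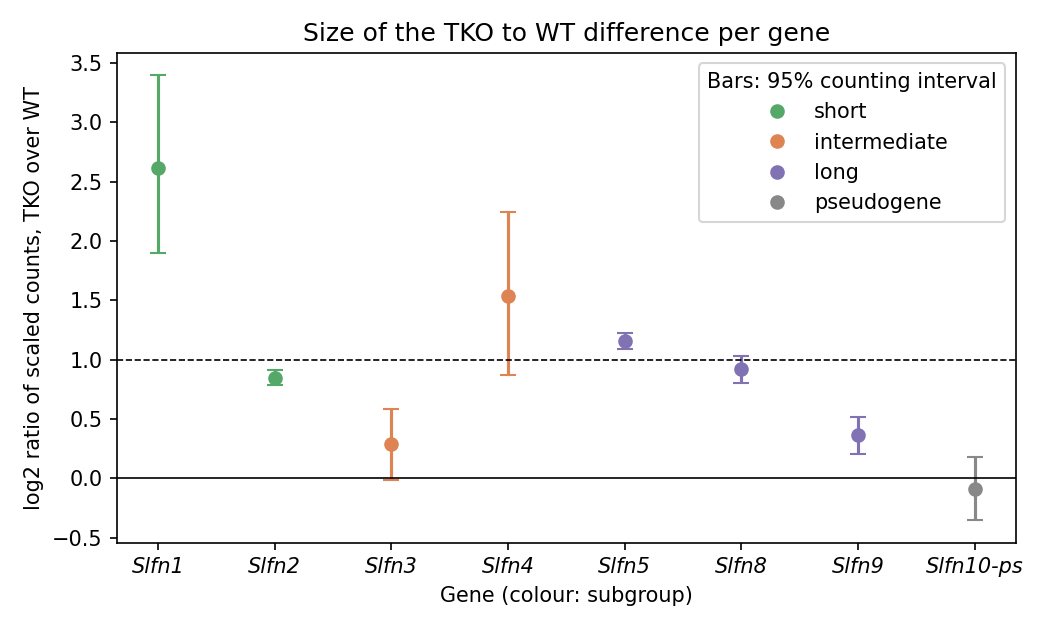
The log2 ratio of scaled counts, TKO over WT, for each Schlafen gene and the pseudogene Slfn10-ps, coloured by subgroup; bars are 95% counting intervals and the dashed line is the 2-fold threshold. Slfn1 (2.61) is highest, Slfn3 (0.29) is the lowest member, and Slfn10-ps lies at -0.09.

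The order of levels was the same in both libraries: Slfn2, Slfn5, Slfn8, Slfn9, Slfn3, Slfn1 and Slfn4, by FPKM. Neighbours in that order had separate counting intervals, except Slfn1 and Slfn4 in WT. There Slfn1 had an interval of 0.56 to 1.45 FPKM and Slfn4 one of 0.40 to 0.89 FPKM. The spread between cultures was not measured. Slfn2 and Slfn5 together supplied most Schlafen reads. Slfn2 held 41.9% of the family's counts in WT (Clopper-Pearson 95% interval 40.8 to 43.0) and 39.4% in TKO (38.6 to 40.3). Slfn5 held 34.0% (32.9 to 35.1) and 39.5% (38.7 to 40.3), so the pair stood level by counts in TKO. Counts are not scaled for length, which is 1684 bases for Slfn2 and 5989 for Slfn5. By FPKM the levels in TKO were 299.8 for Slfn2 and 83.1 for Slfn5. Slfn9 made up 8.44% (7.82 to 9.10) and then 5.66% (5.28 to 6.06).

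Comparing members within each library removes any scaling between libraries. Of 21 pairs of members, 17 had log2 ratios that differed beyond the 95% counting interval, without adjustment over pairs. The 4 pairs that did not were Slfn8 with Slfn2 (difference 0.07, -0.06 to 0.20), Slfn9 with Slfn3 (0.07, -0.27 to 0.41), Slfn4 with Slfn5 (0.38, -0.29 to 1.09) and Slfn4 with Slfn8 (0.62, -0.06 to 1.33). The counts of Slfn4 are few, so its pairs have wide intervals. Within the long subgroup Slfn5 exceeded Slfn8 by 0.24 (0.10 to 0.37), and Slfn8 exceeded Slfn9 by 0.56 (0.36 to 0.75). By promoter motif, the members with an ISRE core ranged from 0.36 to 1.15 and those with the ETS-like letters from 0.29 to 2.61 on the log2 scale.

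Summed over the 7 members, the family reached 7428 counts (WT) and 13587 (TKO), a ratio of 1.91-fold (1.86 to 1.97). The sum is dominated by Slfn2 and Slfn5. Without them the other 5 members had 1792 and 2861 counts, 1.67-fold higher (1.57 to 1.77). By subgroup the sums gave 1.83-fold for the short members, 1.44-fold (1.19 to 1.73) for the intermediate members and 2.00-fold for the long members.

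Parts of several Schlafen transcripts are the same in sequence. The deposited counts are RSEM-type estimates, and 21.3% of those in WT are not whole, as when shared reads are divided between genes. How well such reads were divided between the Schlafen genes was not checked. Of all stretches of 50 bases in the annotated Slfn8 transcripts, 14.6% also occurred in another family transcript, and the share was 11.2% for Slfn9. Both genes shared them with each other and with Slfn10-ps, a transcribed pseudogene between Slfn8 and Slfn2. The share was 8.15% for Slfn4 and 7.39% for Slfn3, mostly with one another, 4.27% for Slfn2, 0.61% for Slfn1 and 0% for Slfn5. Slfn3 also shared 9.77% of its stretches with transcripts outside the family, Slfn4 4.01% and Slfn5 3.37%. Slfn10-ps, which the symbol rule leaves out, was at 248 (WT) and 223 (TKO) counts, a log2 ratio of -0.09 (-0.36 to 0.18). Summing Slfn8 with Slfn9 gave a log2 ratio of 0.72 (0.63 to 0.81), and adding Slfn10-ps gave 0.63 (0.55 to 0.72). Slfn3 and Slfn4 summed gave 0.52 (0.26 to 0.79), which is under the size rule that Slfn4 alone passed.

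Slfn5 overlaps the antisense gene Slfn5os over 9333 bases of its locus, introns included, and 559 of its 6326 annotated exonic bases (8.84%) lie in Slfn5os exons. Slfn5os itself was given 1 count (WT) and 6 counts (TKO), and because strand-specific counting is not stated, reads from those shared bases cannot be told apart. In the authors' deposited table the log2 ratios of FPKM were 2.57 for Slfn1, 1.496 for Slfn4, 1.12 for Slfn5, 0.94 for Slfn8, 0.81 for Slfn2, 0.32 for Slfn9 and 0.25 for Slfn3. The authors' deposited FDR is not read as a test here, since each genotype had 1 library. How that FDR was computed was not stated.

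The 7 genes form 1 cluster on chromosome 11 (GRCm38, 82951349 to 83215154), a span of 264 kb. Slfn9 and Slfn8 lie on the minus strand and the other 5 members on the plus strand. From the cluster start the order is Slfn5 (Entrez 327978, 82951349 to 82964840), Slfn9 (237886, 82978390 to 82991830), Slfn8 (276950, 83002158 to 83020810), Slfn2 (20556, 83065112 to 83070678), Slfn1 (20555, 83116849 to 83122670), Slfn4 (20558, 83175186 to 83190216) and Slfn3 (20557, 83191330 to 83215154). Ratios did not run in one direction along the cluster: the lowest 2, Slfn9 and Slfn3, each lie beside a member past the size rule. Slfn4 ends 83190216 and Slfn3 starts 83191330, so these 2 adjacent genes had the log2 ratios 1.54 and 0.29.

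The higher genes around the cluster all lay on the side of Slfn3, where more measured genes lay than on the side of Slfn5. Of 22 other genes past the count minimum within 1 Mb, 4 were higher and 0 lower, with a median log2 ratio of 0.16. Over all measured genes 2.43% were higher and 2.30% lower. The nearest measured gene before the cluster was Nle1, 42.9 kb away, with 54 and 72 counts and a log2 ratio of 0.48 (-0.05 to 1.02). The nearest after it was AI662270, 8.42 kb away, at 0.28 (0.14 to 0.41). The 4 higher genes all lay at least 310.6 kb beyond the cluster: the chemokine genes Ccl5 (log2 ratio 1.39) and Ccl4 (1.51), Wfdc17 (1.08) and E230016K23Rik (1.34, on 12 and 29 counts).

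**Figure D4:**
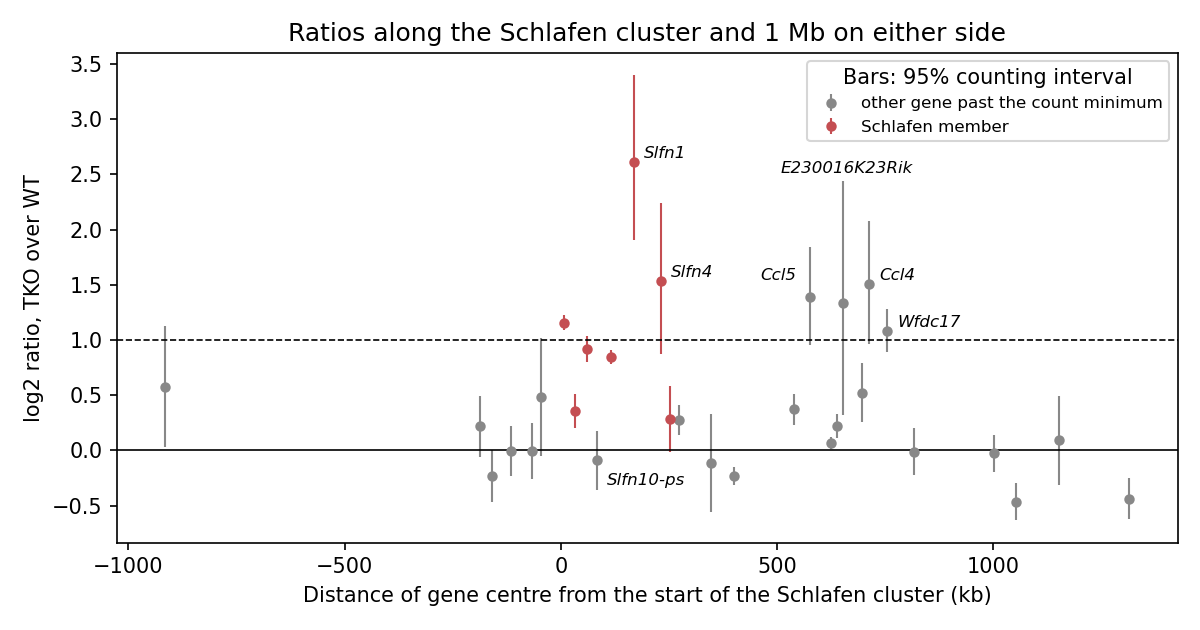
The log2 ratio of each measured gene against the distance of its centre from the start of the Schlafen cluster, in kb, with 95% counting intervals; the dashed line is the 2-fold threshold. Schlafen members (red) stand between 0 and 264 kb, and the 4 other genes past the size rule lie beyond them, among genes that did not pass it.

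Interferon-stimulated genes were the list with the highest median of those compared. All 31 measured reference genes had a log2 ratio above 0, 27 passed the size rule upwards and 0 downwards, and the median was 1.73. Ifit3 (log2 ratio 2.76), Zbp1, a nucleic acid sensor (2.68), and Ifit1 (2.53) had the largest ratios, and Bst2, a membrane tether of viruses, was the most abundant member (1.11). Slfn1, at 2.61, lay within the range of these 3, and all other members lay below the list's median. The list was picked with earlier results of these data known, so its direction is not independent evidence.

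Of 19 measured genes of interferon signalling, 5 were higher and 0 lower, with a median log2 ratio of 0.21. Stat2, a subunit of the complex that binds the ISRE and itself interferon-stimulated, was 2.80-fold higher. Irf7, which amplifies interferon production, was 4.80-fold higher and Usp18, which damps receptor signalling, 4.34-fold. Socs1, a feedback inhibitor, had 12 and 28 counts and a log2 ratio of 1.29. Irf5, the most abundant by FPKM, had a log2 ratio of -0.05. The 5 listed interferon genes had no row in the deposited gene table, so they have no values here.

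Of 13 measured genes of transfer RNA cleavage and translation control, 0 passed the size rule in either direction, and their median log2 ratio was 0.08. Ang, the nuclease angiogenin that cuts transfer RNA, had 147 and 99 counts (-0.50, -0.89 to -0.13), and Rnh1, its inhibitor and the most abundant of the list, had 0.26 (0.20 to 0.31). Ddit3, a stress-induced transcription factor, had 0.78, and Eif2ak2, a kinase that slows translation on sensing double-stranded RNA, had 0.49. Of 10 replication stress genes, chosen because human SLFN11 acts at stalled replication forks, 0 passed the size rule and the median was -0.24 (-0.11 with the length trend removed). Rpa3 had -0.38, Atr -0.30, Cdt1 -0.28 and Ddb1, the most abundant, -0.23.

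Quiescence and cyclin D genes had a median log2 ratio of -0.09 over 15 measured members, with 0 higher and 1 lower. The lower gene was Foxo3, a transcription factor of resting cells, with 645 and 307 counts and a log2 ratio of -1.01 (-1.21 to -0.81). Klf2, another factor of resting leukocytes, had 0.92 (0.72 to 1.12), and Cdkn1a, a cell cycle inhibitor, 0.49. Pcna, a replication clamp and the most abundant of the list, had -0.21.

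**Figure D5:**
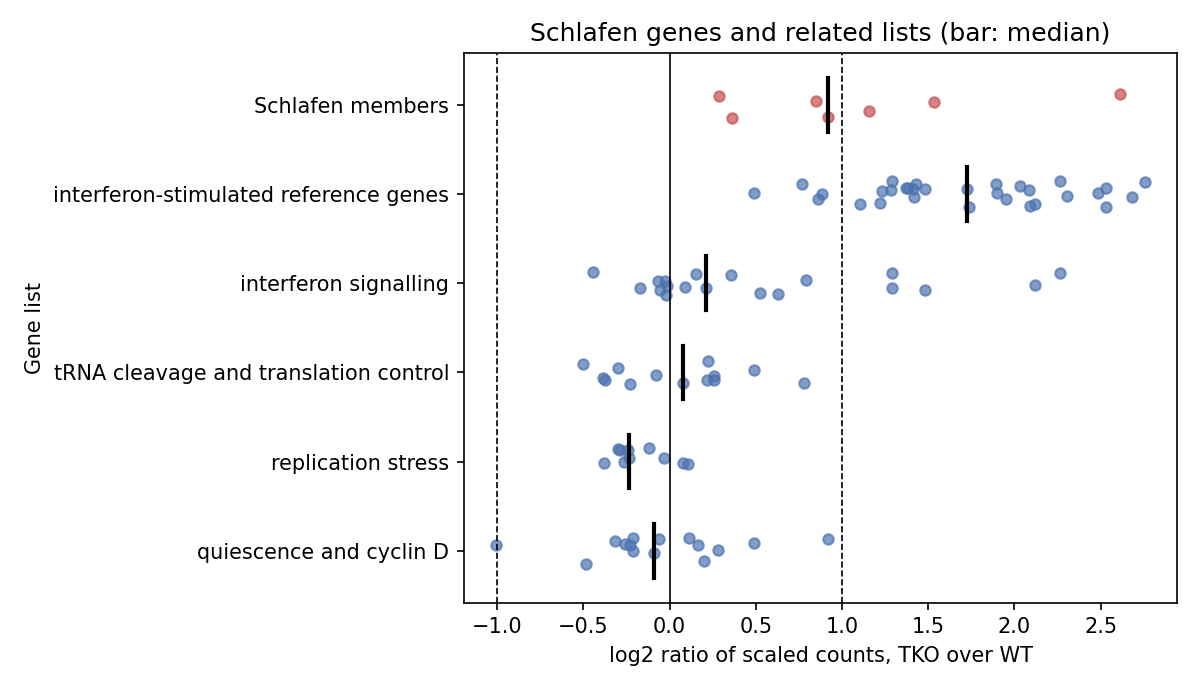
The log2 ratio of each measured gene, TKO over WT, for the Schlafen members (red) and 5 related gene lists (blue); black bars are medians and dashed lines are 2-fold. The Schlafen median (0.92) lies between those of the interferon-stimulated reference genes (1.73) and the interferon signalling genes (0.21).

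The 3 deleted or floxed clusters encode microRNAs of 4 seed families, and Schlafen messages were searched for their sites. The sequences are shown with the seed, bases 2 to 8, in capitals, because the seed is what pairs with a target.
miR-17-5p: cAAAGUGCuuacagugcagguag
miR-18a-5p: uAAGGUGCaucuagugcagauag
miR-19b-3p: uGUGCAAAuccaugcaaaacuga
miR-92a-3p: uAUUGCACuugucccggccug
These RefSeq sequences stand for 6, 2, 2 and 3 mature arms of the clusters with the same seed. The longest annotated 3′ untranslated region of each member, from 53 bases in Slfn3 to 3136 in Slfn5, was searched for the perfect complement of each seed. Only Slfn9 had a match, 1 site for miR-19 at chr11:82978707-82978733 (minus strand, GRCm38).
Slfn9 site: gctgagggggTTTGCACcccacgcagg
Capitals mark the seed match. Thus 1 of 7 members had any of the 4 sites, against 34.0% of 11051 measured genes searched. With 7 members this is no result about the family, and 4 of them (Slfn1, Slfn2, Slfn3 and Slfn4) have regions of 53 to 922 bases, shorter than the median of 1214 bases over the genes searched.

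Cell type markers were compared, since fewer cells of a type and less RNA per cell cannot be told apart in a bulk culture. Macrophage markers were abundant, with summed levels of 5728 FPKM in WT and 6018 in TKO and 0 of 10 past the size rule. The most abundant was C1qb, a complement gene (log2 ratio 0.04), and Fcgr1 had the largest ratio (0.68). T and NK cell markers were scarce apart from Il7r (2102 and 2145 counts): of 7 found, 2 reached the count minimum, and Cd4 was lower (-1.29). Under the minimum, Lck was at 4 and 0 counts and Zap70 at 1 and 0. Others under it did not fall: Cd3d was at 10 and 19 counts, Cd8a at 16 and 16, and Ncr1 at 0 and 1. B cell markers summed to 2.62 and 1.92 FPKM, with Ebf1 lower (-1.33) and Cd79b at -0.37.

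Markers of dendritic cells and some of monocytes moved in the same direction as the Schlafen genes. Of 5 measured dendritic cell markers 4 were higher, and the list summed to 18.2 FPKM in WT and 43.7 in TKO. They were Cd24a, the most abundant (log2 ratio 1.29), Itgax (1.37), Flt3 (10 and 27 counts) and Dpp4 (8 and 22 counts), while Zbtb46 was at 5 and 3 counts. Of 6 measured monocyte markers 3 were higher, with sums of 55.1 and 89.8 FPKM. The most abundant was Ccr2 (log2 ratio 0.03). Ms4a4c (2.74) and Plac8 (15 and 41 counts) were among the higher genes. F13a1 went the other way, with 214 and 130 counts and a log2 ratio of -0.65 (-0.98 to -0.33). Of 2 measured neutrophil markers S100a8 was higher (1.29, on 9 and 21 counts), a call lost with a 99% interval. The other, Cxcr2, had 127 and 115 counts and a log2 ratio of -0.08 (-0.45 to 0.30). The neutrophil list summed to 8.54 and 12.2 FPKM. Fibroblast and stroma markers moved the other way: 6 of 9 were lower, with sums of 97.3 and 28.7 FPKM, and Col1a1 at -1.99. The part of these cells in the Schlafen differences was not tested.

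The transcripts nearest to Slfn2 and Slfn1 were found by distance in the plane of log2 FPKM in the 2 libraries, which describes 2 values per gene and no more. Nearest to Slfn2 were Ms4a6c (175.6 and 285.4 FPKM, distance 0.08), Rnaset2a (187.6 and 274.3) and Anpep (197.0 and 314.6). Nearest to Slfn1 were Cers4 (1.15 and 7.66 FPKM, distance 0.56), Pmch (1.40 and 4.92) and Atp10d (1.00 and 3.55).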

How the data were processed

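Polyadenylated RNA of 1 unstimulated culture per genotype was measured, and the WT and TKO columns of the deposited table were matched to these samples by genotype name, leaving 0 per-sample columns out. The submitters' processing notes list RSEM 1.2.12, Bowtie2 2.2.5 and HISAT2 2.0.4 and mm10, with no roles; annotation and filters were not given in the sources used here. Expected counts were deposited as RSEM-type estimates per gene. The deposited FPKM values were scaled by the authors for length and depth, with 0.01 for genes at 0 counts. The log2 ratio of the authors is that of their FPKM values. The p-value of the authors has an unstated test, and their deposited FDR was handled as a score, since 713 of its values exceed 1.

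Expected counts were rounded, and TMM factors were computed (edgeR 4.0.16, R 4.3.3). Log2 ratios had no pseudocount, and a 0 was set to 3 counts as a bound. Intervals were exact at 95%, conditional binomial (Clopper-Pearson) for ratios and Poisson for levels. Reads carry no molecular identifiers and are not independent molecules, so intervals hold counting error alone. Alternatives tried were library totals, DESeq2 1.42.0 size factors, log2(FPKM + 1) at an FPKM of at least 1, no minimum or 100 counts, 1.5-fold and 4-fold thresholds, a 99% interval, subtraction of a lowess trend with gene length (span 0.3) and sums over paralogs.

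GENCODE M21 (GRCm38, which is mm10) gave positions, transcripts and 3′ untranslated regions; promoters and microRNAs came from RefSeq on GRCm38.p6. Of the interferon-stimulated reference genes 22 had a promoter window. Members, lists and rules were chosen with earlier results of these data known. Seed sites, shared 50-base stretches, the exonic overlap with Slfn5os, pairs of members and the ETS-like motif were added after seeing the data. Named were all members, the most abundant gene and up to 3 with the largest absolute ratio of each list (1 for marker lists). Also named were called and nearest neighbours, and the 3 genes most alike in level. Socs1, Itgax, Flt3, Ms4a4c, Plac8, F13a1, Zbtb46, Lck, Zap70, H2-L and H2-Ea-ps were named after their values were seen. So were Cd3d, Cd8a, Ncr1, Cxcr2, Ccl9, Ccl6 and Ccl3. Some genes that the counts include are not reported here.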

Additional observations from a re-analysis of the deposited data

How the results depend on the processing

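The count of Schlafen members higher in TKO was 3 and moved to 5 with a 1.5-fold threshold and to 1 with a 4-fold threshold; it was 2 with log2(FPKM + 1), which took out Slfn4, and 2 with a count minimum of 100, which Slfn4 does not reach. No setting called a member lower, and Slfn1 was called in all 9 alternatives. Over all genes, 280 were higher and 265 lower; these became 591 and 636 at 1.5-fold, 76 and 26 at 4-fold, and 164 and 95 with a count minimum of 100, and log2(FPKM + 1) gave 213 and 122. The family's median log2 ratio ranged from 0.81 to 0.96 over the alternatives. With the length trend removed Slfn5 was at 1.38 and Slfn2 at 0.73. The median of all genes stayed within 0.1 of 0 under every scaling. No paired analysis was possible because each genotype has 1 library. Depth limits Slfn1 and Slfn4 in WT, at 19 and 26 counts.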
